A study of Mus musculus with 12 samples.

Results

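Hepatocyte identity transcription factors are the DNA-binding proteins that keep the liver-specific gene programme switched on, and 9 of their genes were followed here through paracetamol injury of the mouse liver. The set was a fixed list of names, Hnf4a, Foxa1, Foxa2, Foxa3, Cebpa, Cebpb, Onecut1, Prox1 and Nr5a2, and its rule uses no measured value. All 9 were present among the 24187 genes of the count table, and all 9 were among the 22581 genes that passed a filter on low counts and were tested. RNA was taken from the livers of 12 mice, given as C57BL/6J in the series' design text, while the study's methods also name C57BL6/JOlaHsd for its APAP experiments, and 3 of the mice were controls labelled as untreated. Of the other mice, 5 received acetaminophen (APAP, paracetamol) and then PBS, here called vehicle-treated, and 4 received APAP and then hAAMs. The hAAMs are human alternatively activated macrophages, grown from CD14+ blood monocytes with CSF1 and polarised with IL-4 and IL-13. The labels give 350 mg/kg APAP, whereas the study's severe injury model used 500 mg/kg after a 12 h fast. In that model vehicle or 1000000 hAAMs were injected intravenously 16 h after APAP, with collection at 32 h or 36 h. The sources did not reconcile these doses, and the collection time was not stated separately for these livers. The study's methods give mice of 10 to 12 weeks of age and of either sex, and C57BL/6 mice are an immunocompetent strain, so that the human cells met an intact mouse immune system. Because RNA was sequenced in bulk from liver pieces that mix all cell types, fewer hepatocytes in the tissue and less of a transcript in each hepatocyte cannot be told apart.

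The factors work as a network in which each binds the promoters or enhancers of several others, and hepatocytes hold their identity by keeping all of them on together. HNF4A is a nuclear receptor that drives lipid, bile acid, clotting and urea cycle genes, the FOXA proteins open chromatin at liver enhancers, and C/EBPα and C/EBPβ bind the same DNA element with metabolic and acute-phase target genes respectively. ONECUT1 (HNF6) is a cut-homeodomain factor of liver and bile duct development, PROX1 a homeodomain factor of hepatocytes and lymphatic endothelium, and NR5A2 (LRH-1) a nuclear receptor of bile acid and cholesterol handling.

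Total counts ranged from 60870399 to 74056505 in control livers, from 50859599 to 61826952 in vehicle-treated livers and from 47391650 to 55379420 in hAAM-treated livers. The hepatocyte genes Alb, Apoa1 and Ttr were abundant in every group, and the summed level of 10 hepatocyte marker genes ran from 61989 to 94050 counts per 1000000 library counts (CPM) in control, from 66306 to 96769 in vehicle-treated and from 69996 to 102749 in hAAM-treated livers. Most of that sum was Alb, with group means of 52013, 57520 and 59934 CPM, and other genes of the list were lower in the injured groups, such as Cyp2e1 with group means of 3432, 662 and 1105 CPM. Every liver held transcripts of the Y-linked Ddx3y, with 3064 to 4281 counts, and 10 to 149 counts of Xist. Each liver thus held RNA of a male mouse. Of 5 sex-linked genes Ddx3y alone passed a test, falling by 0.25 on the log2 scale in vehicle-treated livers. This call was lost without control replicate 1 or 2 or vehicle replicate 1, 2, 4 or 5. The libraries of vehicle replicate 3 and hAAM replicate 4 were almost alike, since their counts differed by 1.18 times the counting noise, against 2.42 to 8.21 times in the other 65 of 66 pairs. For the 9 factors, the CPM of hAAM replicate 4 was between 0.942 and 1.09 times that of vehicle replicate 3. The 2 libraries carry different group labels, and results that change without both are given with and without them.

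Per length of exon, Hnf4a was the highest of the 9 factors in every group. In control livers it reached 167 ± 7.47 CPM per kilobase of exon (RPKM, mean ± SD, n = 3), and Cebpa followed with 101 ± 4.64 RPKM. Prox1 at 39.9 ± 8.37, Foxa3 at 37.0 ± 3.65 and Cebpb at 33.6 ± 8.72 RPKM came next, and the ranges of the livers overlapped between Prox1 and Foxa3 and between Foxa3 and Cebpb, so that their order was not resolved. Nr5a2 stood at 19.6 ± 3.74 RPKM, apart from its neighbours on both sides. Foxa2 with 10.2 ± 2.81, Onecut1 with 6.81 ± 2.48 and Foxa1 with 6.22 ± 1.47 RPKM closed the list with overlapping ranges. The span from Hnf4a to Foxa1 was 26.9-fold in control, 26.2-fold in vehicle-treated and 24.3-fold in hAAM-treated livers. In both injured groups Foxa3 came before Prox1 by its mean, with ranges that overlapped in vehicle-treated livers and did not in hAAM-treated livers. In hAAM-treated livers Onecut1 at 11.4 ± 4.43 RPKM (n = 4) came before Foxa2 at 9.48 ± 2.75 RPKM, with overlapping ranges.

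**Figure D1:**
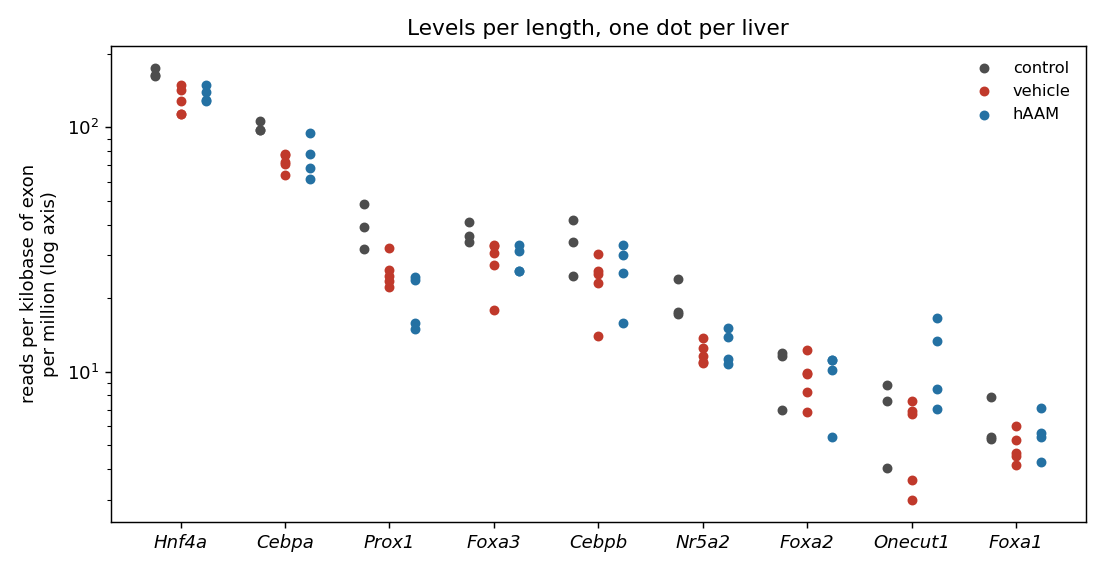
Level of each factor per length in every liver, in RPKM on a log axis, with 1 dot per liver coloured by group and the genes ordered by their control mean. Hnf4a and Cebpa lie above the other 7 factors in all 12 livers, and the 3 lowest factors in control livers, Foxa2, Onecut1 and Foxa1, overlap.

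The DNA just upstream of the 4 factors that fell against control is shown because each of them was called lower in at least 1 comparison and the network is known for binding its own promoters. RefSeq (GRCm38.p6) start sites were found for 9 of the 9 factors, 14 in all, and the 250 bases before each were searched on both strands for short letter strings that stand for the elements bound by these factors. HNF4 was searched as CAAAGTCCA, NR5A as CAAGGTCA, C/EBP as TTGCNNAA and the cAMP response element as TGACGTCA. For FOXA proteins the string searched was TGTTTAC. For ONECUT proteins, which bind related homeodomain sites, it was ATTGATT. For the core promoter element of the general transcription machinery, here called the TATA box, it was TATAAA. Elements of other factors were not searched. In the lines below each sequence reads 5′ to 3′ along the gene's strand, bases in annotated exons are left out, and capitals mark the matches. Only windows that held a match are printed, so those of the downstream starts of Hnf4a and Prox1 are not.
Hnf4a upstream start, chr2:163506607-163506807, plus strand: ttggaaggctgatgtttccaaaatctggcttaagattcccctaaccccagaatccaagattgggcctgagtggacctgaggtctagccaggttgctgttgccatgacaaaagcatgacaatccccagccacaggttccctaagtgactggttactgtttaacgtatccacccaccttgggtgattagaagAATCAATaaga
Nr5a2 upstream start, chr1:136960449-136960698, minus strand: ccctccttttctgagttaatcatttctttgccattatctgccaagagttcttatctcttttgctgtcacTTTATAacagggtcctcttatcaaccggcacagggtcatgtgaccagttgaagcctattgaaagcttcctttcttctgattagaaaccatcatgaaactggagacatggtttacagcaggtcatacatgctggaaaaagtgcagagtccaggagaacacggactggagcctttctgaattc
Nr5a2 downstream start, chr1:136953631-136953880, minus strand: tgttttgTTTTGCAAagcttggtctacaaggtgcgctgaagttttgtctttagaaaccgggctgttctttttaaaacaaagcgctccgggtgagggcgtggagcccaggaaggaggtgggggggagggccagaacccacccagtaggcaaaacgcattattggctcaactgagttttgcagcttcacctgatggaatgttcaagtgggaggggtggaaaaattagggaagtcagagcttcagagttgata
Cebpa, chr7:35119043-35119292, plus strand: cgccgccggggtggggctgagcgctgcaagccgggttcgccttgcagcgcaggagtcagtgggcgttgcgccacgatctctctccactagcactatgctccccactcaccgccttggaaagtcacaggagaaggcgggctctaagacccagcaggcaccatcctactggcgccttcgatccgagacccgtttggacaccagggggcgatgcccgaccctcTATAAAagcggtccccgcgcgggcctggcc
Prox1 upstream start, chr1:190170828-190171077, minus strand: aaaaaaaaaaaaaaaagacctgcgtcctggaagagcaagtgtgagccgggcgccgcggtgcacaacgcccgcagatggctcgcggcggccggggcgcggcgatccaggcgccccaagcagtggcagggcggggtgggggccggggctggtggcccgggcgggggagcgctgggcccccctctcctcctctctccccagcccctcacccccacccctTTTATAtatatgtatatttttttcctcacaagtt

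The upstream start of Hnf4a held 1 ONECUT match, a motif present in 2.61% of 32851 RefSeq promoter windows of the same length, and its downstream start held none of the letters searched. That downstream start lies within the gene, at chr2:163547155, and the Hnf4a sequence shown is not from it. Which start gave the transcripts counted in these livers was not tested. The upstream start of Nr5a2 held the TATA box letters, and its downstream start held a C/EBP match. TATA box letters lay 25 to 30 bases before the start of Cebpa, 29 to 34 bases before the upstream start of Prox1 and 176 to 181 bases before the upstream start of Nr5a2, and 12.4% of all windows held them. The downstream start of Prox1 held none of the letters searched. C/EBP letters were present in 9.56% of windows. Among the other factors, Foxa1 held a FOXA match (3.17% of windows), Foxa2 an ONECUT match and, at another start, TATA box letters 203 to 208 bases before it, and Foxa3 held TATA box letters 31 to 36 bases before its start, while the windows of Cebpb and Onecut1 held none of the letters searched. No factor's window held the HNF4, NR5A or cAMP response letters, which occurred in 0.384%, 1.33% and 1.55% of windows.

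Whether the factors changed with injury was asked by comparing each APAP group with control. The controls were labelled as untreated, and no fast or injection was stated for them. Injury, the fast and handling therefore cannot be told apart in these comparisons. In vehicle-treated livers 4 of the 9 factors fell (Hnf4a, Cebpa, Prox1 and Nr5a2) and none rose, by edgeR's quasi-likelihood test with a false discovery rate (FDR) under 0.05 over all genes tested. By the same test 29.8% of all genes were called and 14.8% were called lower. The factors' own share was 44.4%, which moves with single genes in so short a list, and the difference was not tested. All 9 log2 fold changes were negative, with a median of -0.39 against 0.01 over all genes, and 4 factors did not overlap between the groups (Hnf4a, Foxa3, Cebpa and Nr5a2), which held for 34.8% of all genes. Calls of higher genes made up 15.0% of all genes, 5 factors and 41.8% of all genes had an unadjusted p under 0.05, and DESeq2 called 4 factors and 34.0% of all genes. In hAAM-treated livers 3 of the 9 fell (Cebpa, Prox1 and Nr5a2), or 33.3%, where 20.7% of all genes were called and 9.96% were called lower. Of the log2 fold changes 8 were negative and Onecut1 was positive, the median was -0.35 against 0.02 over all genes, and 5 factors did not overlap with control (Hnf4a, Foxa3, Cebpa, Prox1 and Nr5a2), which held for 28.5% of all genes. Calls of higher genes made up 10.7% of all genes, 4 factors and 35.2% of all genes had an unadjusted p under 0.05, and DESeq2 called 4 factors and 25.8% of all genes. Both comparisons use the same 3 control livers. The count in vehicle-treated livers fell to 2 without control replicate 1, 2 or 3 or without vehicle replicate 4 or 5, and the count in hAAM-treated livers fell to 2 without control replicate 2 or 3, vehicle replicate 1, 2 or 3, or hAAM replicate 1, 2 or 4, and to 1 without control replicate 1. Scaled by library size alone, which moves the median of all genes to 0.36 and 0.32, Foxa1, Foxa2 and Onecut1 turned positive in vehicle-treated livers, Hnf4a, Foxa1 and Foxa2 in hAAM-treated livers, and the counts of lower factors became 1 and 2.

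**Figure D2:**
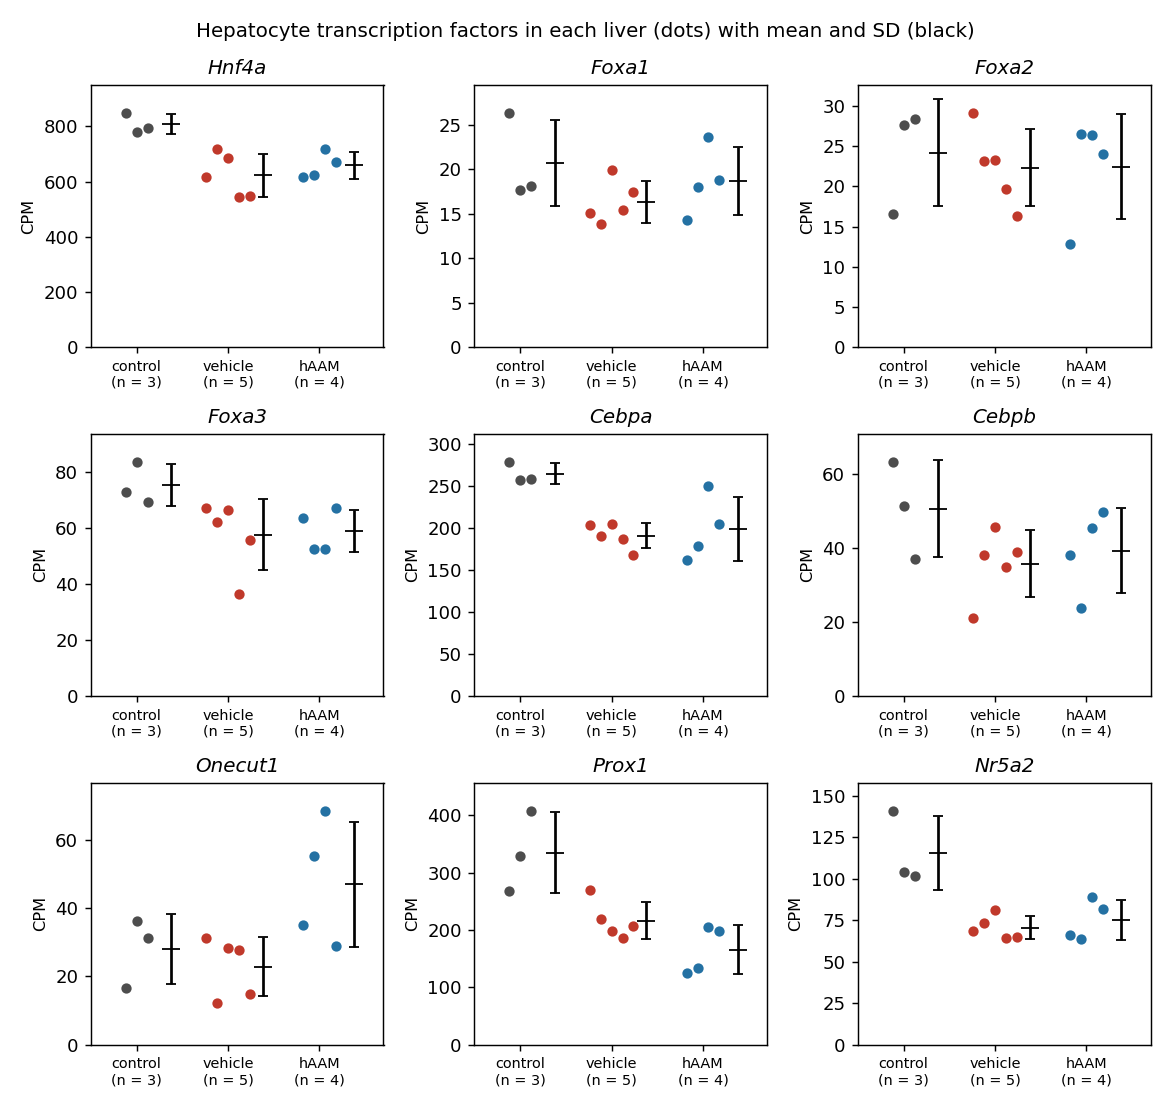
CPM of the 9 factors in each liver, with 1 dot per liver and the mean ± SD of each group in black, for 3 control, 5 vehicle-treated and 4 hAAM-treated livers; axes start at 0. All injured livers lie below all control livers for Hnf4a, Foxa3, Cebpa and Nr5a2, and Onecut1 is highest in hAAM replicate 3 at 68.4 CPM.

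Of the 2 nuclear receptors, Hnf4a (ENSMUSG00000017950, chr2:163506808-163572910, plus strand) fell by 0.38 on the log2 scale in vehicle-treated livers. Its CPM was 849, 780 and 795 in the control livers, 618, 718, 685, 546 and 548 in the vehicle-treated livers, and 617, 626, 720 and 673 in the hAAM-treated livers. Every injured liver was below every control liver, and the 2 injured groups overlapped. The log2 fold change in vehicle-treated livers was -0.38 with an SE of 0.11 and an edgeR FDR of 0.0276, which is a 1.30-fold lower level. In hAAM-treated livers it was -0.29 with an SE of 0.12 and did not pass edgeR's test (FDR 0.102), while DESeq2 gave an FDR of 0.0472. Leaving out control replicate 1, 2 or 3 or vehicle replicate 1, 4 or 5 raised the FDR in vehicle-treated livers to 0.0934, 0.0535, 0.0691, 0.0546, 0.0661 and 0.0579 respectively, with log2 fold changes between -0.43 and -0.33 over all livers left out. An antisense gene, Hnf4aos, lies within Hnf4a without sharing exon bases, and its log2 fold changes of 0.37 and 0.43 did not pass the test (edgeR FDR 0.307 and 0.293). The snRNA gene Gm25881, also within Hnf4a and sharing no exon bases, rose by 0.95 in vehicle-treated livers (edgeR FDR 0.0442), from group means of 0.634 to 1.23 CPM, and its log2 fold change of 0.83 in hAAM-treated livers did not pass.

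Nr5a2 (ENSMUSG00000026398, chr1:136842571-136960448, minus strand) fell further, to 0.610-fold of control in vehicle-treated and 0.650-fold in hAAM-treated livers. The control livers gave 141, 104 and 102 CPM, the vehicle-treated livers 68.7, 73.6, 81.2, 64.2 and 64.8 CPM, and the hAAM-treated livers 66.3, 63.4, 89.1 and 81.5 CPM. No injured liver reached the lowest control liver. The log2 fold changes were -0.71 with an SE of 0.14 (edgeR FDR 0.00319) and -0.62 with an SE of 0.15 (edgeR FDR 0.0128). The vehicle-treated call was made in all 21 alternative fits, DESeq2 and the fits that left out 1 liver included. The hAAM-treated call was lost only without control replicate 1, the liver with the highest Nr5a2 level, at a log2 fold change of -0.45 and an FDR of 0.0578.

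The C/EBP proteins are leucine zipper factors, and Cebpa (ENSMUSG00000034957, chr7:35119293-35121928, plus strand), which drives gluconeogenic and urea cycle genes, fell in both APAP groups. Its CPM was 279, 258 and 258 in control livers, 204, 191, 205, 188 and 168 in vehicle-treated livers, and 162, 179, 250 and 205 in hAAM-treated livers. The control livers were the 3 highest of the 12, with hAAM replicate 3 close below them. The log2 fold change was -0.47 with an SE of 0.13 in vehicle-treated livers (edgeR FDR 0.0155), and this call was lost without control replicate 1 (FDR 0.0593). In hAAM-treated livers it was -0.41 with an SE of 0.13 at an FDR of 0.0458, just inside the threshold, and 7 of 21 alternative fits kept it. Without control replicate 1, 2 or 3 that FDR was 0.132, 0.0844 and 0.100, without vehicle replicate 1, 2, 3 or 4 it was 0.0605, 0.0657, 0.0530 and 0.0608, without hAAM replicate 1, 2 or 4 it was 0.117, 0.117 and 0.0693, and without both near-identical libraries it was 0.0830. The antisense gene Gm45091 shares 51 exon bases with Cebpa and had group means of 0.740, 0.724 and 0.562 CPM, with log2 fold changes of -0.04 and -0.41 that did not pass.

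Cebpb (ENSMUSG00000056501, chr2:167688915-167690418, plus strand), the inducible family member of the acute-phase response and of regenerating liver, did not pass the test in any comparison. Control livers gave 63.2, 51.3 and 37.0 CPM, vehicle-treated livers 21.0, 37.9, 45.5, 34.8 and 38.9 CPM, and hAAM-treated livers 38.2, 23.7, 45.2 and 49.7 CPM. The 3 groups overlapped, although all 9 injured livers lay below the control median. The log2 fold changes were -0.50 with a 95% interval from -1.07 to 0.07 (edgeR FDR 0.166) and -0.36 with an interval from -0.97 to 0.24 (edgeR FDR 0.374), so that a fall as large as that of Cebpa lay within both intervals. Tmem189 shares 312 exon bases with Cebpb on the other strand, and the strand setting of the counting was not stated while Tmem189 had mean levels of 8.91, 10.7 and 7.81 CPM in control, vehicle-treated and hAAM-treated livers. The noncoding A530013C23Rik, which starts 2262 bases from Cebpb, had log2 fold changes of -0.67 and -0.27 that did not pass. The ratio of Cebpa to Cebpb CPM was 5.48 ± 1.34 in control (n = 3), 5.79 ± 2.23 in vehicle-treated (n = 5) and 5.36 ± 1.59 in hAAM-treated livers (n = 4). The ratios of single livers ran from 4.12 to 9.70 and overlapped between all groups.

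The 3 FOXA factors, winged-helix proteins that bind nucleosomal DNA, did not pass the test in any comparison. Foxa3 (ENSMUSG00000040891, chr7:19013284-19023538, minus strand) was the most abundant of them and came nearest, with 73.1, 83.8 and 69.5 CPM in control livers, 67.4, 62.4, 66.7, 36.4 and 55.8 CPM in vehicle-treated livers, and 63.7, 52.7, 52.7 and 67.3 CPM in hAAM-treated livers. All injured livers lay below all control livers, the highest of them by a small margin. Its log2 fold changes of -0.39 and -0.35, each with an SE of 0.17 or 0.18, had edgeR FDRs of 0.109 and 0.185, the second of which was 0.0495 without vehicle replicate 4. Sympk, a polyadenylation factor gene on the other strand whose start lies 839 bases from that of Foxa3, fell by 0.27 in both comparisons (edgeR FDR 0.00811 and 0.0150).

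Foxa1 (ENSMUSG00000035451, chr12:57540628-57546916, minus strand) gave 26.3, 17.7 and 18.1 CPM in control livers, from 13.8 to 19.9 CPM in vehicle-treated livers with a median of 15.5, and 14.3, 18.1, 23.7 and 18.8 CPM in hAAM-treated livers. Control replicate 1 stood above all other livers, and the other 2 control livers lay within the range of the injured ones. Its log2 fold changes against control were -0.34 with an interval from -0.72 to 0.04 (edgeR FDR 0.161) and -0.15 with an interval from -0.55 to 0.25 (edgeR FDR 0.605). Foxa2 (ENSMUSG00000037025, chr2:148042877-148046969, minus strand) gave 16.5, 27.6 and 28.4 CPM in control livers, from 16.3 to 29.1 CPM in vehicle-treated livers and from 12.9 to 26.6 CPM in hAAM-treated livers. Here control replicate 1 was the lowest control liver, and every group spanned much the same range. The log2 fold changes of Foxa2 were -0.12 with an interval from -0.67 to 0.43 (edgeR FDR 0.757) and -0.11 with an interval from -0.68 to 0.47 (edgeR FDR 0.807).

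**Figure D3:**
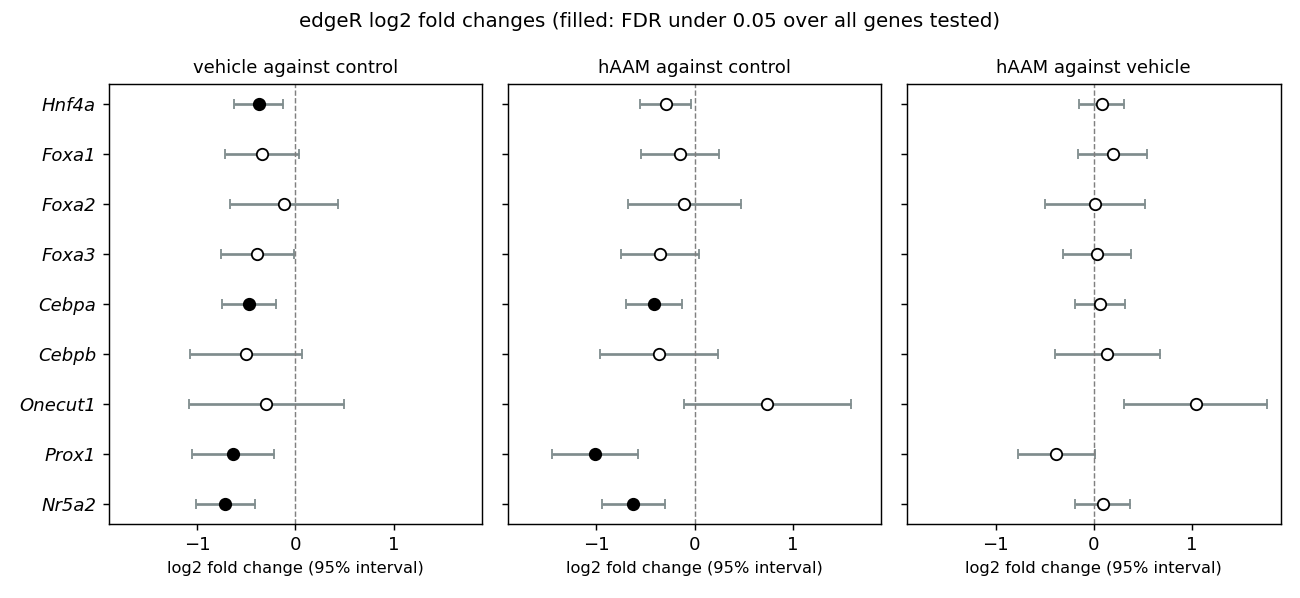
edgeR log2 fold changes of the 9 factors with 95% intervals in the 3 comparisons, filled where the FDR over all genes tested was under 0.05 and open otherwise. The 4 filled points of vehicle against control and the 3 of hAAM against control lie below 0, and no point is filled for hAAM against vehicle.

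Of the homeodomain factors, Prox1 (ENSMUSG00000010175, chr1:190118035-190170714, minus strand) had the largest fall of the 9, to 0.495-fold of control in hAAM-treated livers. Control livers gave 267, 329 and 408 CPM, vehicle-treated livers 270, 219, 198, 186 and 207 CPM, and hAAM-treated livers 125, 133, 206 and 198 CPM. Vehicle replicate 1 was above the lowest control liver, whereas all hAAM-treated livers lay below all control livers. The log2 fold change was -1.02 with an SE of 0.20 in hAAM-treated livers (edgeR FDR 0.00614), and this call was made in all 21 alternative fits. In vehicle-treated livers it was -0.63 with an SE of 0.19 (edgeR FDR 0.0272), and the FDR rose to 0.0604 and 0.137 without control replicate 2 or 3, to 0.0617 and 0.0521 without vehicle replicate 4 or 5, and to 0.0530 without both near-identical libraries. The antisense gene Prox1os shares 133 exon bases with Prox1 and had group means of 4.35, 4.75 and 4.34 CPM, with log2 fold changes of 0.13 and -0.0037 that did not pass. A further antisense gene, Gm28172, shares no exon bases with Prox1, and its log2 fold changes of -0.22 and -0.77 did not pass either.

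Since lymphatic endothelium also makes Prox1, its markers were read beside it. Of 5 measured lymphatic endothelial genes 2 rose in each comparison, or 40%, beside 29.8% and 20.7% of all genes called. The difference was not tested. The 2 genes were the hyaluronan receptor gene Lyve1, by 1.29 and 1.15, and the VEGF-C receptor gene Flt4, by 0.57 and 0.37 on the log2 scale. Sinusoidal endothelium also makes both. In hAAM-treated livers neither rise passed without control replicate 1, and 1 of them passed without control replicate 2 or 3 or hAAM replicate 2. The summed CPM of the list ran from 173 to 217 in control, from 178 to 215 in vehicle-treated and from 200 to 208 in hAAM-treated livers, of which Reln, a gene that is also on the stellate cell list, made up most, with group means of 129, 105 and 116 CPM and log2 fold changes of -0.30 and -0.15 that did not pass. The more restricted markers Pdpn and Mmrn1 had group means between 0.521 and 1.75 CPM. The share of lymphatic cells in the Prox1 level was not tested.

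Onecut1 (ENSMUSG00000043013, chr9:74861921-74891781, plus strand) was the only factor with a positive log2 fold change in hAAM-treated livers, and no comparison of it passed the test. Control livers gave 16.6, 36.2 and 31.3 CPM, vehicle-treated livers 31.1, 12.3, 28.4, 27.6 and 14.9 CPM, and hAAM-treated livers 35.0, 55.2, 68.4 and 28.9 CPM. Of the 4 hAAM-treated livers 2 were above every other liver, and the groups overlapped. Against control the log2 fold change was -0.30 with an interval from -1.09 to 0.50 in vehicle-treated livers (edgeR FDR 0.572) and 0.74 with an interval from -0.10 to 1.59 in hAAM-treated livers (edgeR FDR 0.194). It was also the most variable of the 9 between livers, with coefficients of variation of 36.4%, 37.7% and 38.9% in the 3 groups, where those of Hnf4a were 4.46%, 12.6% and 7.23%. A long noncoding gene that shares 2171 exon bases with Onecut1 was not analysed here.

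Whether hAAM treatment altered the factors after injury was asked by comparing the injured groups with each other. None of the 9 factors passed edgeR's test, and neither did any of the 22581 genes (0.00%), while 1133 genes (5.02%) had an unadjusted p under 0.05 and DESeq2 called 1 gene (0.00443%). Onecut1 alone of the factors had an unadjusted p under 0.05, with a log2 fold change of 1.04, an SE of 0.34, an unadjusted p of 0.00912 and an edgeR FDR of 0.966. All 4 hAAM-treated livers were above the vehicle median of 27.6 CPM, and the fold was 2.05. Leaving out 1 liver moved its log2 fold change between 0.80, without hAAM replicate 3, and 1.21, without hAAM replicate 4, and without both near-identical libraries it was 1.30. Prox1 was the only factor lower with hAAMs, at a log2 fold change of -0.38 with an interval from -0.78 to 0.01 (edgeR FDR 0.966), and all 4 hAAM-treated livers lay below the vehicle median. The other 7 log2 fold changes lay between 0.01 for Foxa2 and 0.19 for Foxa1, and the 95% interval of Hnf4a ran from -0.15 to 0.31, that of Cebpa from -0.20 to 0.31 and that of Nr5a2 from -0.19 to 0.37. No factor was without overlap between these 2 groups, which 1.40% of all genes were. Within the injured livers, hAAM replicate 3 had the highest level of 5 of the 9 factors.

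The direction of Onecut1 was set beside 3 genes known as its targets, Pfkfb1, G6pc and Tat, none of which passed edgeR's test in any comparison. Between the injured groups all 3 log2 fold changes were positive, with a median of 0.73, where that of all genes was 0.0032. Most changes were positive in the other factors' target lists read below as well. These numbered 15 of 17 for HNF4A, 6 of 8 for FOXA, 6 of 7 for C/EBPα, 8 of 12 for acute-phase genes and 5 of 6 for NR5A2. The NR5A2 median was 0.62, and G6pc and Tat are also on the FOXA and C/EBPα lists. G6pc, the glucose-6-phosphatase of gluconeogenesis, gave 154, 142 and 107 CPM in control livers, 39.6, 134, 180, 117 and 140 CPM in vehicle-treated livers and 358, 121, 410 and 186 CPM in hAAM-treated livers. Of the hAAM-treated livers 3 were above every other liver. The lowest of these was hAAM replicate 4 at 186 CPM, close above its near-identical library, vehicle replicate 3, at 180 CPM. The log2 fold change of G6pc between the injured groups was 1.14 with an SE of 0.40 (edgeR FDR 0.966). Tat, tyrosine aminotransferase, had a log2 fold change of 0.73 with an SE of 0.33 (edgeR FDR 0.966), and its highest level in any liver was in hAAM replicate 3, at 2323 CPM. Pfkfb1, a liver enzyme that sets fructose 2,6-bisphosphate, was at 0.05 with an interval from -0.44 to 0.53. Replicate 3 of the hAAM group had the highest level of Onecut1 and of all 3 target genes, and the injured groups overlapped for each of them.

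**Figure D4:**
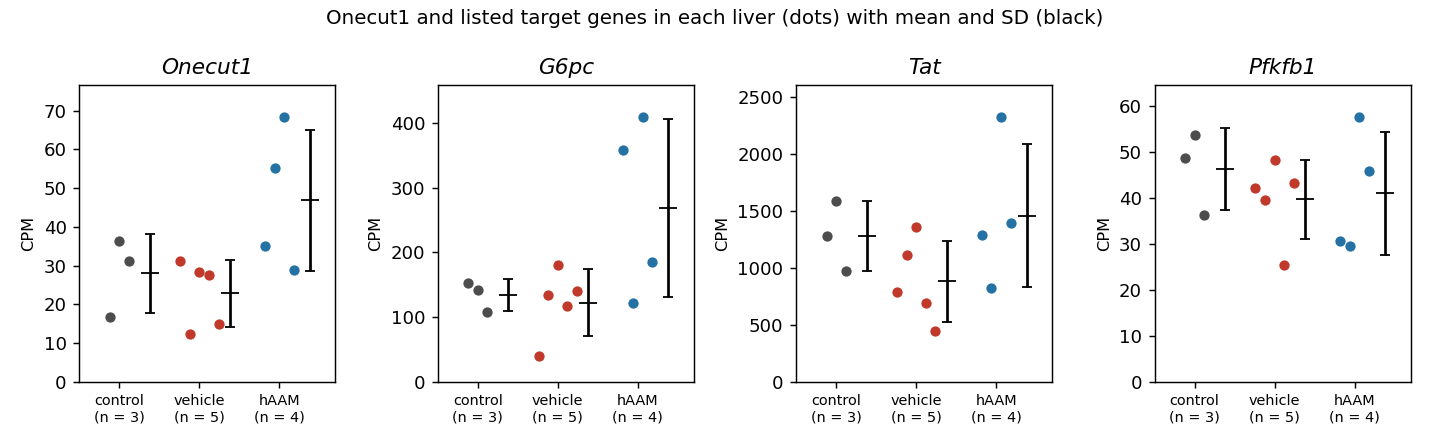
CPM of Onecut1, G6pc, Tat and Pfkfb1 in each liver, with 1 dot per liver and the mean ± SD of each group in black; axes start at 0. For Onecut1 the hAAM-treated mean of 46.9 CPM is above the vehicle-treated mean of 22.9 CPM, and for each gene some livers of the 2 groups overlap.

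Further factors of the network were also read. Of 19 such genes 7 fell and 2 rose in vehicle-treated livers, and 7 fell and none rose in hAAM-treated livers, with medians of -0.25 and -0.22. The shares called were 47.4% and 36.8%, where 29.8% and 20.7% of all genes were called, and the difference was not tested. The largest fall was that of Tbx3, a T-box factor of pericentral hepatocytes, from 37.3, 59.2 and 110 CPM in control livers to between 4.30 and 14.2 CPM in vehicle-treated and between 3.83 and 15.1 CPM in hAAM-treated livers, at log2 fold changes of -3.02 and -3.12 (edgeR FDR 0.00117 and 0.00284). Onecut2, the paralogue of Onecut1, fell from 264, 319 and 357 CPM to between 121 and 185 CPM and between 119 and 177 CPM, at -1.06 and -1.08 (edgeR FDR 0.00176 and 0.00401).

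The zinc finger and homeobox repressor genes Zbtb20 and Zhx2, both known for keeping Afp low in adult liver, fell by 0.89 and 0.67 and by 0.74 and 0.67. Ahr, the aryl hydrocarbon receptor, fell by 0.80 and 0.68, Nr1h4, the bile acid receptor FXR, by 0.47 and 0.50, and Rxra, the partner of many nuclear receptors, by 0.39 and 0.46. Nr2f2, a COUP-family receptor also made by endothelium, rose by 0.64, and Cux2, a cut-homeodomain factor, rose by 1.14 from 0.743, 0.944 and 1.09 CPM in control livers, while their log2 fold changes in hAAM-treated livers were 0.24 and 0.10 and did not pass. The network list had 1 rise in vehicle-treated livers without control replicate 1, 2 or 3 or vehicle replicate 2, 4 or 5. The difference between the injured groups did not pass for any of these genes.

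The 10 other genes of the network did not pass in either comparison. They were Hhex, Nr0b2, Nr1i2, Nr1i3, Ppara, Rora, Gata4, Gata6, Creb3l3 and Klf15, with log2 fold changes between -0.62 for Ppara in hAAM-treated livers and 0.64 for Nr0b2 in vehicle-treated livers. Among the other C/EBP family genes, Cebpg, a partner of the family, fell by 0.66 and 0.63 in the 2 comparisons, and Cebpe and the stress factor gene Ddit3 fell by 0.53 and 0.57 in vehicle-treated livers, while their log2 fold changes of -0.38 and -0.31 in hAAM-treated livers did not pass. Cebpd, which is induced in the acute phase, had log2 fold changes of -0.76 and -0.49 that did not pass, with control livers at 29.4, 11.6 and 6.99 CPM. In this list 3 of 4 genes fell in vehicle-treated and 1 of 4 in hAAM-treated livers, or 75% and 25%. Of all genes 29.8% and 20.7% were called and 14.8% and 9.96% called lower, and the differences were not tested. The count in vehicle-treated livers was 1 without control replicate 1, vehicle replicate 1, 2 or 4, hAAM replicate 4 or both near-identical libraries. That in hAAM-treated livers was 2 without hAAM replicate 2. Scaled by library size alone, the network list had 5 falls and 4 rises in vehicle-treated and 4 falls and 3 rises in hAAM-treated livers.

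**Figure D5:**
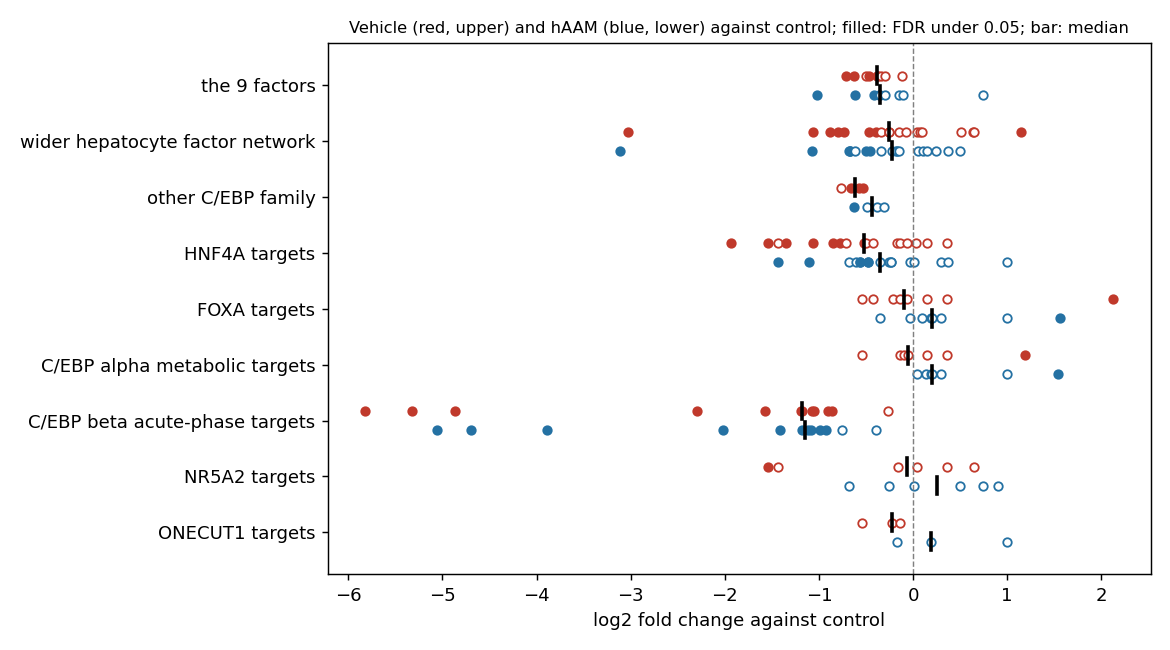
edgeR log2 fold changes against control of the 9 factors, of further factors and of genes known as their targets, with 1 dot per gene, vehicle-treated above in red and hAAM-treated below in blue, filled where the FDR was under 0.05, and a black bar at each list's median. The acute-phase list lies lowest, with medians of -1.18 and -1.15, and most dots of the FOXA, metabolic C/EBPα, NR5A2 and ONECUT1 lists are open.

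Of 17 genes known as HNF4A targets 7 fell and none rose in vehicle-treated livers, and 4 fell and none rose in hAAM-treated livers, with medians of -0.52 and -0.35. The shares called were 41.2% and 23.5%, beside 29.8% and 20.7% of all genes, so that the second is near the share called in either direction. Genes called lower made up 14.8% and 9.96% of all genes, and the differences were not tested. Cyp27a1, a bile acid synthesis enzyme, gave 415, 354 and 376 CPM in control, 124, 109, 142, 55.3 and 70.7 CPM in vehicle-treated and 100, 81.0, 237 and 146 CPM in hAAM-treated livers, at log2 fold changes of -1.93 and -1.44 (edgeR FDR 0.00200 and 0.0170). Pklr, the liver pyruvate kinase gene, fell by 1.35 and 1.10, and Cyp8b1, which shapes the bile acid pool, fell by 1.54 in vehicle-treated livers and was at -0.68 in hAAM-treated livers (edgeR FDR 0.393). F9, F7, Mttp and Otc were the other genes lower in vehicle-treated livers, whereas Apoa1, Apoc3 and Ttr had log2 fold changes within 0.37 of 0 in both comparisons and did not pass. Without control replicate 1 the falls numbered 3 in vehicle-treated livers and none in hAAM-treated livers. The falls in hAAM-treated livers also numbered none without hAAM replicate 1, 1 without hAAM replicate 2, and 2 without control replicate 3, vehicle replicate 1 or 2, hAAM replicate 4 or both near-identical libraries. Scaled by library size alone they numbered 5 and 1, with 2 rises in each comparison.

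Of the targets of FOXA, C/EBPα and NR5A2, 12.5%, 14.3% and 16.7% passed the test in vehicle-treated livers, where 29.8% of all genes did. Each of these shares is 1 gene of a short list, and the differences were not tested. Of 8 FOXA targets 1 rose in each comparison, Afp, the fetal albumin-family gene, by 2.13 and 1.56 from 1.51, 1.98 and 3.73 CPM in control livers. Of 7 metabolic C/EBPα targets 1 rose in each, the coactivator gene Ppargc1a, by 1.19 and 1.54, and of 6 NR5A2 targets 1 fell in vehicle-treated livers, Cyp8b1 again, and none in hAAM-treated livers. Of 6 measured fetal and progenitor genes 2 rose in each comparison, Afp and Sox4, the latter by 1.72 and 1.57. These counts rest on few livers. In hAAM-treated livers the FOXA list had no rise without control replicate 2 or hAAM replicate 1 or 2, the C/EBPα list none without control replicate 3, and the fetal list none without control replicate 1 or 2 or hAAM replicate 1 or 2 and 1 without control replicate 3 or vehicle replicate 1, 2 or 5. In vehicle-treated livers the C/EBPα list had no rise and the NR5A2 list no fall without control replicate 1 or 3, the NR5A2 list also none without vehicle replicate 1, 2 or 5, the fetal list had 1 rise without control replicate 1 or 3, and the FOXA list 2 rises without control replicate 1.

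Of 12 acute-phase genes 11 fell in vehicle-treated and 10 in hAAM-treated livers, where Cebpb itself did not pass. The shares called were 91.7% and 83.3%, where 29.8% and 20.7% of all genes were called and 14.8% and 9.96% called lower. Leaving out 1 liver, the falls ran from 8 to 11 and from 7 to 11. Control livers were uneven for some of these genes, from 1892 to 9543 CPM for Saa2 and from 153 to 614 CPM for Orm2. Saa3, a serum amyloid A gene, fell from 209, 188 and 176 CPM in control livers to between 2.17 and 5.75 CPM in vehicle-treated and between 2.02 and 9.06 CPM in hAAM-treated livers, at log2 fold changes of -5.82 and -5.06. Saa1 and Saa2, which are nearly identical in sequence and may share reads, fell by 4.86 and 5.32 in vehicle-treated and by 3.89 and 4.69 in hAAM-treated livers, from control levels of 2016, 5358 and 7672 CPM for Saa1. Lcn2 was the gene that did not pass in either comparison, at -0.27 and -0.39.

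Markers of the cell types in the tissue were read beside these results, and their part in them was not tested. The counts of these short lists are to be read against the 29.8% and 20.7% of all genes called in vehicle-treated and hAAM-treated livers, and the shares of the macrophage list, 33.3% in both, and of the sinusoidal list in hAAM-treated livers, 20%, differ from these by less than 1 gene. Among 10 hepatocyte markers 3 fell and 1 rose in vehicle-treated livers and none passed in hAAM-treated livers, where 2 fell without hAAM replicate 3. The rise was that of Tdo2, tryptophan dioxygenase, at 0.62 with an edgeR FDR of 0.0497, and 9 of the 12 fits that left out 1 liver called no rise in this list. The falls were those of the pericentral enzyme gene Cyp2e1, the periportal Cyp2f2 and the receptor gene Asgr1, by 2.37, 1.58 and 0.44, and all 3 falls were lost without control replicate 1. Among 6 macrophage markers 2 rose in each comparison, Cd68 by 2.21 and 2.09 and Lyz2 by 1.15 and 1.53, with 1 rise in vehicle-treated livers without control replicate 2 or 3. Among 6 cholangiocyte markers none passed, although 1 rose in vehicle-treated livers without vehicle replicate 3 and in hAAM-treated livers without vehicle replicate 4 or hAAM replicate 3 or 4, with group means of Krt7, Krt19, Epcam and Cftr between 0.203 and 1.59 CPM. The summed CPM ran from 219 to 265, 261 to 439 and 264 to 464 for the macrophage list, and from 40.4 to 65.8, 64.6 to 301 and 64.0 to 231 for the cholangiocyte list, in control, vehicle-treated and hAAM-treated livers respectively. Most of the difference in the cholangiocyte sum was that of Spp1, which macrophages also make, with group means of 25.3, 98.0 and 115 CPM and log2 fold changes of 1.96 and 2.19 that did not pass (edgeR FDR 0.0704 and 0.0675). Sinusoidal endothelial and stellate cell lists each had 2 of 5 genes higher in vehicle-treated livers, with 1 and 2 of 5 higher in hAAM-treated livers, and no neutrophil, B cell or T cell gene passed. In vehicle-treated livers the sinusoidal count was 1 without control replicate 3, and the stellate count 1 without control replicate 2 or vehicle replicate 1, 2, 4 or 5. In hAAM-treated livers the sinusoidal count was 0 without control replicate 1, 2 or 3, vehicle replicate 1 or 2 or hAAM replicate 1 or 2, and 2 without vehicle replicate 3 or hAAM replicate 3 or 4. There the stellate count was 0 without control replicate 3 and 1 without control replicate 1 or 2, vehicle replicate 1, 2 or 5 or hAAM replicate 1 or 2. Of 5 red cell genes 4 rose and 1 fell in vehicle-treated and 1 fell in hAAM-treated livers, the 4 rises being lost without control replicate 1, 2 or 3, while in hAAM-treated livers 4 rose without vehicle replicate 5 or hAAM replicate 4 and 2 without vehicle replicate 3. Of 12 core clock genes 7 rose and 4 fell in vehicle-treated and 4 rose and 1 fell in hAAM-treated livers, where the fall was lost without control replicate 1 or 3 or hAAM replicate 1 and 2 fell without hAAM replicate 3. Without both near-identical libraries, no hepatocyte marker rose in vehicle-treated livers, 1 cholangiocyte gene rose and 1 sinusoidal gene fell in each comparison, and in hAAM-treated livers 4 red cell genes and 2 sinusoidal genes rose and no clock gene fell. A sinusoidal gene also fell in vehicle-treated livers without vehicle replicate 3 or hAAM replicate 2, and in hAAM-treated livers without vehicle replicate 4 or hAAM replicate 3 or 4. The collection hour of each liver was not given, and its part in the factors' levels was not tested.

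The genes whose levels followed the called factors most closely over the 12 livers were found by the root mean square difference of log2 CPM after each gene was centred on its own mean, among 11171 genes. For Hnf4a these were Ppm1b, a protein phosphatase gene, at 0.055 and Ggcx, the vitamin K-dependent carboxylase gene, at 0.0567, where the spread of Hnf4a itself was 0.195. For Cebpa they were C87436 at 0.0594 and Nars2 at 0.0786, with a spread of 0.251. For Nr5a2 they were Sdha, a succinate dehydrogenase subunit gene, at 0.0711 and Lactb at 0.0783, with a spread of 0.341. For Prox1 they were Fzd7, a Wnt receptor gene, at 0.158 and Garem1 at 0.201, with a spread of 0.466, so that its pattern was matched less closely than those of the other 3.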

How the data were processed

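The authors prepared RNA from frozen liver pieces, removed adapters with cutadapt 4.6, mapped paired-end reads to GRCm38 with STAR 2.7.1a and assigned them to Ensembl genes with summarizeOverlaps, per the paper and the submitters' processing notes. The deposited table holds unnormalized counts made by the authors for 24187 genes in 12 livers, and the strand setting of the counting was not given in the sources used here. Total counts ran from 47391650 to 74056505 per liver. A GENCODE M21 annotation of the same assembly held 24128 of these genes and gave symbols, positions and exon lengths.

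Analyses used R 4.3.3 with edgeR 4.0.16. Genes passed filterByExpr by group, counts were scaled with TMM factors, and 1 quasi-likelihood model was fitted to all 12 livers with 3 two-sided comparisons and Benjamini-Hochberg FDRs over 22581 genes. The biological coefficient of variation was 0.214. CPM used TMM-scaled library sizes, RPKM the union of exons, and log2 CPM a prior count of 2. DESeq2, which the authors used in version 1.38.3, was run here in version 1.42.0 as an alternative. Other scalings and filters, a robust fit, fits of 2 groups, a replicate block and fits that left out each liver in turn were also run.

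The 9 factors and all gene lists were chosen with earlier results of these data known. The lists were further hepatocyte factors, other C/EBP genes, known targets of each factor, fetal genes, markers of the liver's cell types, clock genes and sex-linked genes. The named genes were the 9 factors, the further factors and C/EBP genes, up to 3 genes of each other list with the largest called change of vehicle against control, genes that overlap a factor or start within 5 kb of it, and the 2 genes nearest in pattern to each called factor. Other genes named from the lists were chosen after their values were seen. A few genes of these lists are not reported here and were left out of the lists' counts and medians. Histology, serum and cell measurements were not analysed here.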

Additional observations from a re-analysis of the deposited data

Results flagged for a closer look

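Among 114 groups of 4 or 5 livers checked over 57 genes, 5 had 1 liver far from the others, and chance gives about 1 in 20. No level of the 9 factors was among them. In hAAM replicate 3 the acute-phase genes Saa1, at 799 CPM against 131 to 241 in the other hAAM-treated livers, and Saa2, at 544 CPM against 90.6 to 155, stood high, and the sequences of these genes are nearly identical. In the same liver 5 of the 9 factors had their highest level of all injured livers. Lyve1 stood high in vehicle replicate 5, at 39.6 CPM against 18.9 to 24.7. Krt7 stood high in hAAM replicate 2, at 2.59 CPM against 0.697 to 0.908, and Cftr in vehicle replicate 3, at 0.484 CPM against 0.104 to 0.177.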

How the results depend on the processing

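With 4 of 9 factors called in vehicle-treated and 3 of 9 in hAAM-treated livers against control, the counts ran from 2 to 4 and from 1 to 3 when each liver was left out in turn, and library size alone gave 1 call in vehicle-treated livers. Between the injured groups no setting called a factor. Of the alternative log2 fold changes of the 9 factors 505 kept their direction and their side of the threshold, 33 lost the call, 2 gained it and 27 changed sign, and the cause was not tested.

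The sign changes were those of factors that did not pass or of small differences. With library size alone, Foxa1, Foxa2 and Onecut1 came to 0.0043, 0.23 and 0.054 in vehicle-treated livers, Hnf4a, Foxa1 and Foxa2 to 0.0024, 0.14 and 0.19 in hAAM-treated livers, and Foxa2 and Foxa3 to -0.037 and -0.0018 between the injured groups. Without both near-identical libraries Foxa2 came to -0.0096 between the injured groups. Leaving out each liver, Foxa2 ran from -0.33 to 0.015 in vehicle-treated and from -0.32 to 0.089 in hAAM-treated livers against control, and from -0.083 to 0.20 between the injured groups. Foxa1 ran from -0.28 to 0.066 in hAAM-treated livers against control. Between the injured groups Foxa3 ran from -0.093 to 0.096, Cebpa from -0.070 to 0.15, Cebpb from -0.00097 to 0.32 and Nr5a2 from -0.0016 to 0.17.

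The replicate numbers of the labels did not pair the livers, since the correlations of same-numbered livers after removing group means ran from -0.46 to 0.38. With the replicate number as a block the calls were 1 in vehicle-treated and 2 in hAAM-treated livers, and Foxa2 came to 0.060 in vehicle-treated livers and to -0.14 between the injured groups. Per length, the longest transcript in place of all exons gave Hnf4a 185 and Nr5a2 24.4 RPKM in control livers, and library size alone gave Hnf4a 141, Cebpa 84.9 and Foxa3 31.3 RPKM. Leaving out 1 of the 3 control livers ended a call against control for each of the 4 called factors.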
